A study of Mus musculus with 56 samples.

Results

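The genes described here are 10 genes of antigen presentation on major histocompatibility complex (MHC) class II and of dendritic cells, chosen by symbol: H2-Aa, H2-Ab1, H2-Eb1, Cd74, Ciita, Clec9a, Xcr1, Batf3, Zbtb46 and Cd209a. All 10 were found by Ensembl identifier among the 55487 identifiers of the female and male count tables and the 55414 of the surgery table. All 10 passed the filter on low counts in each table.

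They were measured by bulk poly(A) RNA sequencing of whole adrenal glands of C57BL/6J mice, in 56 libraries of 14 groups with 4 mice each. Conditional knockout (cKO) mice carried floxed Znrf3 (Znrf3 Fx/Fx) and SF1-Cre, a Cre made in steroid-producing cells and not in immune cells. Their controls were littermates labelled only as negative for SF1-Cre. Female glands of both genotypes were taken at week 6, week 9 or week 12 after birth, and male glands at week 4, week 6 or week 9. In a further series all 8 males were cKO at 9 weeks of age, 4 castrated at week 4 and 4 given sham surgery. Of the castrated mice 1 carried an eYFP reporter allele at R26, 2 carried mTmG and 1 carried none. Among the sham mice 2 carried eYFP, 1 carried mTmG and 1 carried none. Per the design text the weeks were compared to follow a switch from hyperplasia to regression of the gland.

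MHC class II molecules are dimers of an alpha and a beta chain that show peptides from engulfed material to CD4 T cells. H2-Aa and H2-Ab1 encode the chains of I-A, H2-Eb1 encodes the beta chain of I-E, and Cd74 encodes the invariant chain that escorts new dimers to the compartment where peptides are loaded. Ciita encodes the coactivator that switches the class II genes on through factors bound at a shared pair of promoter elements, the X and the Y box. Dendritic cells are the main presenting cells. Type 1 conventional dendritic cells take up dead cells through the receptor CLEC9A, follow the chemokine XCL1 through XCR1 and depend on the transcription factor BATF3. ZBTB46 is a transcription factor of conventional dendritic cells that is also made by endothelial cells, and Cd209a encodes a lectin of type 2 and monocyte-derived dendritic cells. Macrophages and B cells can carry class II as well. The C57BL/6 strain makes no I-E alpha chain, and its pseudogene H2-Ea-ps had 0 counts in every library.

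In GRCm38 coordinates H2-Ab1 (ENSMUSG00000073421) lies at chr17:34257689-34269419 on the plus strand, H2-Aa (ENSMUSG00000036594) at chr17:34282744-34287823 on the minus strand and H2-Eb1 (ENSMUSG00000060586) at chr17:34305867-34316674 on the plus strand, all in the MHC. The regulator Ciita lies at chr16:10480059-10528418, plus strand. Cd74 lies outside the MHC. The dendritic cell genes are spread over Clec9a at chr6:129408862-129424763 (plus strand), Xcr1 at chr9:123852315-123862029 (minus strand), Batf3 at chr1:191097847-191108945 (plus strand), Zbtb46 at chr2:181387762-181459426 (minus strand) and Cd209a at chr8:3743397-3748984 (minus strand). The annotated exons of Clec9a share 184 bases (5.59%) with Clec1b on the same strand, and those of Ciita share 329 bases (3.45%) with Dexi on the opposite strand. How the authors assigned reads in such stretches is not stated in the labels, so these values carry that uncertainty.

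The class II genes are known to share an X and a Y box upstream of their starts, and 2 of the 7 members with a RefSeq promoter entry (GRCm38.p6, 250 bases before to 50 after the start) held both core words in order. The words searched were GCAAC for the X box and ATTGG for the Y box, on both strands of the gene, with 25 to 40 bases from the start of one to the start of the other. Both promoters are printed because they carry this pair of words, which the capitals mark, at chr17:34287774-34288073 (minus strand) and chr17:34305617-34305916 (plus strand).
H2-Aa: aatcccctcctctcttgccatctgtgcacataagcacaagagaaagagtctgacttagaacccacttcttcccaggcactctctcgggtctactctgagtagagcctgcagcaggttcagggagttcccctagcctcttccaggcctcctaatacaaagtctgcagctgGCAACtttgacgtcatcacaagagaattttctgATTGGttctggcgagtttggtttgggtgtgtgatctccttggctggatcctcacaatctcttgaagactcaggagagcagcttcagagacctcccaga
H2-Eb1: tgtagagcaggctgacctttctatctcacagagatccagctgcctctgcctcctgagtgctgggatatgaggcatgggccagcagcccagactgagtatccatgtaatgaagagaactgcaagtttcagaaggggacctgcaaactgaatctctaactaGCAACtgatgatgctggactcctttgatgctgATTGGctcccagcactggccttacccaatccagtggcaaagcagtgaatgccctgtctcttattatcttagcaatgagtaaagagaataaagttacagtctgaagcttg

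The X word of H2-Aa begins 81 bases and its Y word 48 bases before the start, a distance of 33 bases. In H2-Eb1 the X word begins 91 bases and the Y word 59 bases before the start, a distance of 32 bases. The pair in this order and spacing was held by 261 of 32851 RefSeq promoters (0.794%). The X word, with or without the Y word, was held by 35.2%, and the Y word, with or without the X word, by 37.4%. The promoter of Clec9a held the X word without the Y word, that of Xcr1 the Y word without the X word, and those of Batf3, Zbtb46 and Cd209a neither. Among other class II genes and genes of peptide loading, 3 of 10 with an entry held the pair, namely H2-Oa, H2-Ob and H2-Eb2. The spelling and spacing were chosen after these promoters had been seen. A match is a description of the letters, not of a bound factor.

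Library totals ran from 35694264 to 51604620 counts in females, from 12431963 to 35531016 in males and from 25145519 to 42411447 in the surgery series. Levels are CPM, counts scaled to library size with TMM factors. A gene was called at an adjusted p under 0.05 in the quasi-likelihood test of edgeR, adjusted by the Benjamini-Hochberg method over all genes tested, and this test gives each adjusted p below unless another is named. Sham replicate 1 stood apart from its group: 93.909% of its counts fell on identifiers with a symbol, against 99.596% to 99.813% in the other sham libraries. The chi-square per degree of freedom between its counts and theirs was 279 to 324, against 25.03 to 39.3 among those 3 libraries. The results on the 10 genes in the surgery series are given with and without it. Znrf3 counts over the whole gene were higher in cKO than in control glands, for example 76.7 ± 19.5 against 36.6 ± 2.85 CPM in females at 6 weeks (SD, n = 4 each). The labels do not say which exons are deleted, so this value does not check the deletion. Markers of the adrenal medulla were all called lower in cKO glands in all 6 genotype comparisons, with sums of 118 to 234 CPM in cKO against 1960 to 2554 CPM in control females at 6 weeks. In bulk tissue, fewer cells of a type and less RNA per cell cannot be told apart.

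Per kilobase of merged exons, the level of the class II chains was far above that of the dendritic cell genes in every group. Across the group means Cd74 ranged from 104 to 463 CPM per kb, H2-Eb1 from 28.5 to 140 CPM per kb, H2-Ab1 from 21.7 to 106 CPM per kb and H2-Aa from 16.1 to 84.2 CPM per kb. This order held in all 14 groups. Zbtb46 came next with 1.73 to 3.05 CPM per kb. Ciita had 0.39 to 1.74 CPM per kb and Batf3 0.34 to 2.45 CPM per kb, and their ranges over groups overlap those of Clec9a (0.14 to 1.72 CPM per kb), Cd209a (0.12 to 1.90 CPM per kb) and Xcr1 (0.05 to 0.81 CPM per kb). In control males at 9 weeks Zbtb46 stood at 2.75 ± 0.0531 CPM per kb, Batf3 at 1.31 ± 0.514 CPM per kb, Ciita at 1.296 ± 0.298 CPM per kb and Cd209a at 0.533 ± 0.255 CPM per kb (SD, n = 4). Batf3 and Ciita did not differ beyond their spread there.

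The class II genes did not pass the test for a genotype difference at any of the 6 ages. In females at 6 weeks H2-Aa had 51.8, 75.2, 60.02 and 57.6 CPM in cKO glands, against 38.8, 94.2, 64.2 and 59.99 CPM in control glands. The control range enclosed the cKO range. In females at 9 weeks H2-Aa had 98.7, 108, 72.6 and 108 CPM in cKO glands, against 50.1, 89.1, 71.4 and 63.9 CPM in control glands. In females at 12 weeks it had 51.9, 60.3, 94.3 and 107 CPM in cKO glands, against 90.8, 103, 71.3 and 146 CPM in control glands. At 9 weeks 3 of the 4 cKO libraries lay above all control libraries, and the groups overlapped at each age. The log2 fold change of H2-Aa was -0.07 ± 0.26 (SE, adjusted p = 0.863) at 6 weeks, 0.50 ± 0.26 (adjusted p = 0.146) at 9 weeks and -0.39 (adjusted p = 0.286) at 12 weeks.

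H2-Ab1, H2-Eb1 and Cd74 were not called in females either. At 9 weeks their log2 fold changes were 0.46, 0.44 and 0.52 with adjusted p values of 0.164, 0.192 and 0.115. Ciita, their coactivator, had 6.26, 6.69, 4.96 and 7.65 CPM in cKO glands at 9 weeks, against 3.29, 5.24, 4.11 and 5.01 CPM in control glands. Cd74, the invariant chain gene, had 270.0, 299.8, 217 and 326 CPM in the same cKO glands, against 146, 240.4, 211 and 181 CPM in the control glands. For both genes 3 of the 4 cKO libraries exceeded every control library, and the remaining one did not. The difference of Ciita was 0.53 ± 0.28 on the log2 scale (adjusted p = 0.154). With only the 8 libraries of this age fitted, H2-Aa (0.52, adjusted p = 0.0425) and H2-Eb1 (0.46, adjusted p = 0.0498) were called higher. So were Cd74 (0.54, adjusted p = 0.026) and Ciita (0.55, adjusted p = 0.0411). The share of all genes called in that fit is not given here. In the fit of all groups it was 34.6% at 9 weeks.

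In males the class II levels in cKO and control glands overlapped at each age. At 4 weeks H2-Aa had 58.2, 104, 57.8 and 83.0 CPM in cKO glands, against 89.1, 53.5, 80.0 and 69.3 CPM in control glands. At 6 weeks it had 152, 115, 157 and 158 CPM in cKO glands, against 143, 144, 210.0 and 105 CPM in control glands. At 9 weeks it had 269.8, 250.3, 219 and 314 CPM in cKO glands, against 231, 265, 196 and 198 CPM in control glands. At no age did the libraries of one genotype lie apart from those of the other. The log2 fold changes of the 4 genes between genotypes lay between -0.02 and 0.13 at 4 weeks, between -0.08 and 0.04 at 6 weeks and between 0.07 and 0.24 at 9 weeks, with adjusted p values of 0.406 or more. Ciita had 13.9, 8.88, 10.9 and 12.8 CPM in cKO glands at 9 weeks, against 15.2, 14.3, 9.61 and 10.2 CPM in control glands. Its log2 change of -0.09 there had an adjusted p of 0.839.

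**Figure D1:**
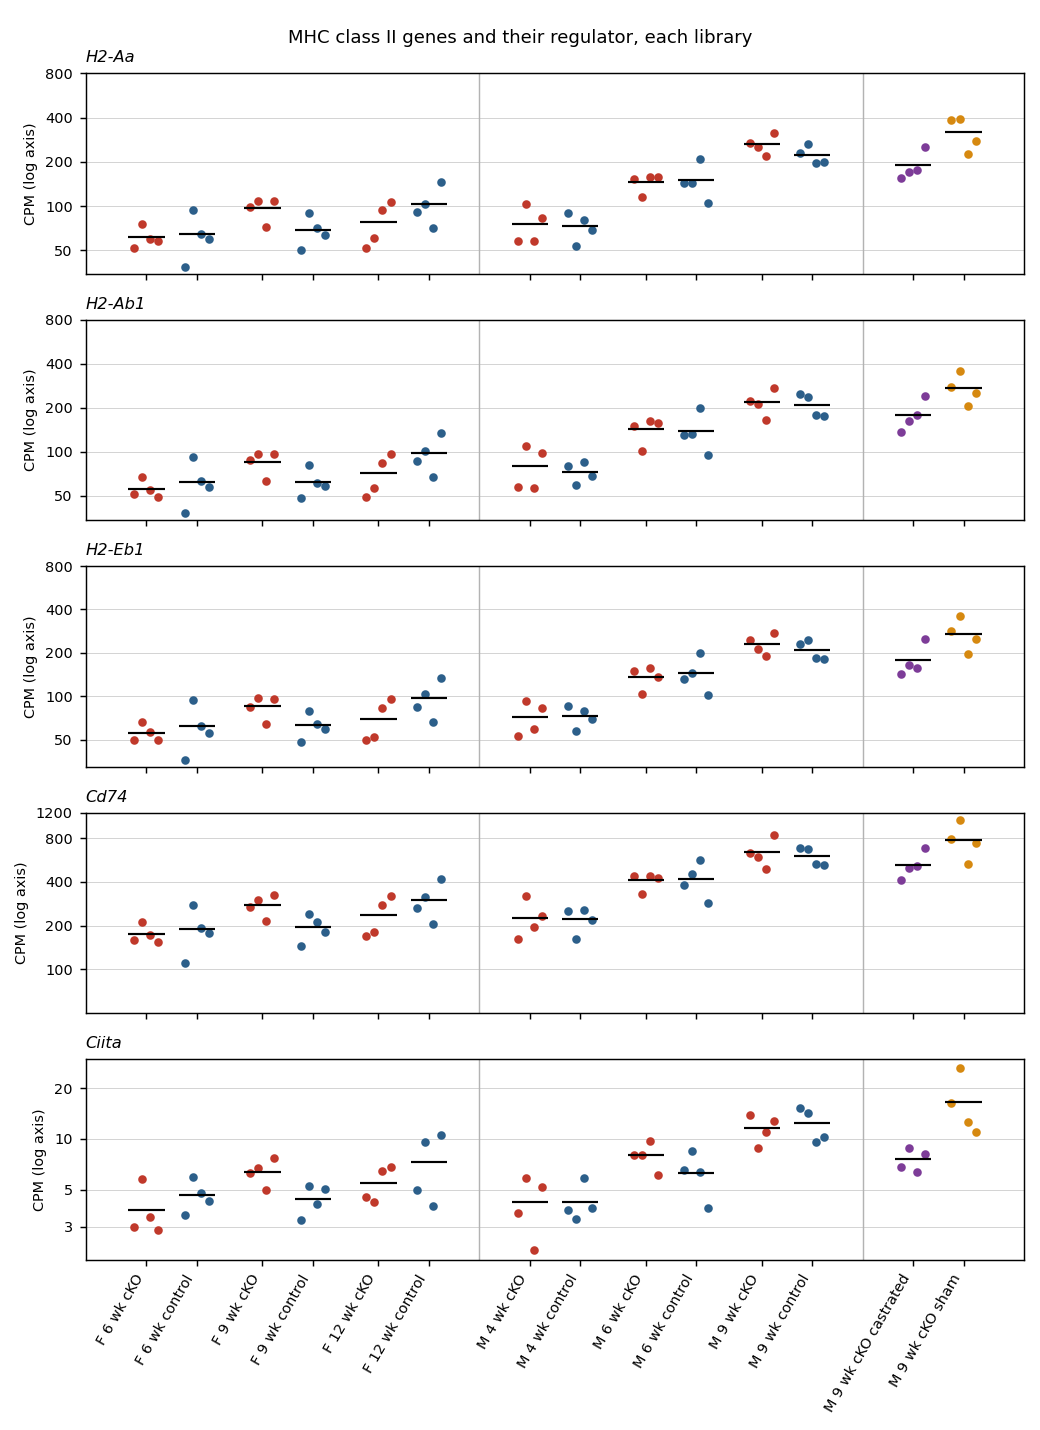
CPM of H2-Aa, H2-Ab1, H2-Eb1, Cd74 and Ciita on a log axis by week and group, with 1 point per library and a bar at the group mean, in females, males and the surgery series. The cKO and control points overlap at each age, and male levels at 9 weeks lie above those at 4 weeks in both genotypes.

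These genotype counts can be read against all genes. Among the 10 genes 1 was called in females at 6 weeks, where 33.4% of all genes tested were called, 1 at 9 weeks (34.6% of all genes) and 1 at 12 weeks (25.1%). In males 1 was called at 4 weeks (19.2% of all genes), 0 at 6 weeks (20.1%) and 0 at 9 weeks (24.1%). The called gene was Zbtb46 each time, and it was lower. At 6 weeks in males 2 of the 10 had an unadjusted p under 0.05 in edgeR, beside 5399 of all 17086 genes. DESeq2 called 1 of the 10 there, Xcr1, beside 3771 of all genes. At 9 weeks in males 3 of the 10 had an unadjusted p under 0.05, beside 6102 of all 17086 genes. DESeq2 called 0 of the 10 there, beside 4468 of all genes. The members' median log2 fold change ran from -0.33 in females at 12 weeks to 0.45 in females at 9 weeks, beside a median over all genes between -0.02 and 0.01 in the 6 comparisons.

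Macrophage markers changed with genotype in the same glands. In females, 7, 9 and 7 of 12 markers were called higher in cKO glands at 6, 9 and 12 weeks, and in males 1, 9 and 9 of 12 at 4, 6 and 9 weeks, with none lower. Gpnmb, a glycoprotein of lipid-laden macrophages, was 7.05 ± 0.87 higher on the log2 scale (adjusted p = 3.2e-06) in male cKO glands at 9 weeks, and Cd68, a lysosomal macrophage protein, 3.15 ± 0.40 higher (adjusted p = 5.2e-06). The summed level of the 12 markers at that age was 986 to 4733 CPM in cKO glands and 482 to 622 CPM in control glands, with no marker at 0. The sum of H2-Aa, H2-Ab1, H2-Eb1 and Cd74 there was 1062 to 1703 CPM in cKO glands and 1074 to 1422 CPM in control glands. The macrophage sums did not overlap between genotypes and the class II sums did. B cell markers, the other class II carriers checked, had sums of 6.49 to 13.4 CPM in these cKO glands and 6.06 to 8.80 CPM in the control glands. None of the 6 B cell markers tested was called in any of the 6 genotype comparisons. Of 7 T cell markers 0, 2 and 2 rose in females at 6, 9 and 12 weeks and 0, 1 and 1 in males at 4, 6 and 9 weeks, with Cd4, the class II coreceptor gene that some macrophages also express, at 2.02 (adjusted p = 0.0061) in males at 9 weeks. The part of macrophages and T cells in the class II levels was not tested.

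**Figure D2:**
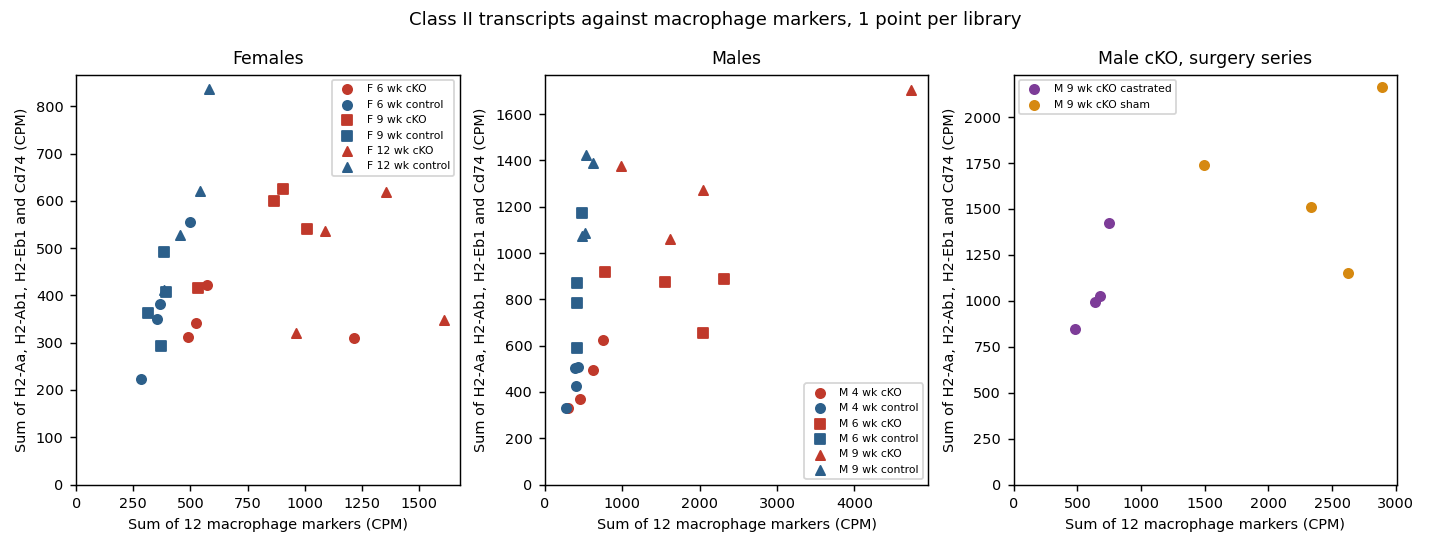
Summed CPM of the 4 class II genes against summed CPM of the 12 macrophage markers, 1 point per library, in females, males and the surgery series. In males at 9 weeks the cKO points extend to 4733 CPM of macrophage markers while their class II sums stay within 1062 to 1703 CPM.

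Other genes of the class II pathway differed in how many were called between genotypes. Of 11 tested genes of peptide loading and further class II chains, 3 rose and 1 fell in female cKO glands at 6 weeks, 5 rose and 1 fell at 9 weeks, and 3 rose and 1 fell at 12 weeks. In male cKO glands 1, 3 and 5 rose at 4, 6 and 9 weeks and none fell. The gene that fell in females was Ctsl, a lysosomal protease, with -1.52 on the log2 scale (adjusted p = 3.7e-06) at 6 weeks. Ctss, the protease that trims the invariant chain, was higher by 1.53 on the log2 scale (adjusted p = 0.0017) in females at 9 weeks and by 2.59 (adjusted p = 8.4e-05) in males at 9 weeks. Ifi30, a lysosomal thiol reductase, was 0.52 higher (adjusted p = 0.0049) in the female and 0.99 higher (adjusted p = 9.6e-05) in the male cKO glands. H2-DMb1, a chain of the peptide exchange factor H2-DM, was called in females at 9 weeks (0.77, adjusted p = 0.0137), and neither at 6 nor at 12 weeks nor in males. Macrophage lysosomes hold Ctss and Ifi30 too, and what share came from which cell was not tested.

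Of 7 factors that bind the X and Y boxes or join them, among them the RFX and NF-Y subunits and Creb1, edgeR called 0 in each genotype comparison. Between 1 and 3 of the 7 had an unadjusted p under 0.05 there, beside 6754 to 8016 of all 18645 genes in females and 5381 to 6102 of 17086 in males. Of 16 tested genes of interferon gamma signalling and response, the pathway best known for inducing Ciita, between 1 and 4 rose and at most 1 fell. Socs1, an inhibitor of that signalling, was lower in cKO glands at 5 ages, with a log2 difference of -0.92 ± 0.26 (adjusted p = 0.0092) in females at 6 weeks and of -0.86 ± 0.13 (adjusted p = 3.45e-05) in males at 6 weeks. Cxcl9, a chemokine induced by interferon gamma, was 1.50 ± 0.48 higher (adjusted p = 0.018) in females at 9 weeks. MHC class I presentation genes were called higher in 1, 1 and 0 of 12 genes in females at 6, 9 and 12 weeks and in 5, 3 and 6 of 12 in males at 4, 6 and 9 weeks. H2-D1, a class I heavy chain, was 0.82 ± 0.16 higher on the log2 scale (adjusted p = 0.00067) in male cKO glands at 9 weeks. None of the 12 class I genes was called lower in those 6 comparisons.

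With age, class II RNA rose in males of both genotypes. Between 4 and 6 weeks in cKO glands 6 of the 10 genes were called higher, against 7.53% of all genes. They were H2-Aa (0.94, adjusted p = 0.0043), H2-Ab1 (0.83, adjusted p = 0.0165), H2-Eb1 (0.93, adjusted p = 0.0042), Cd74 (0.85, adjusted p = 0.009), Ciita (0.93, adjusted p = 0.0218) and Zbtb46 (0.44, adjusted p = 0.0096). The H2-Ab1 values were 150.4, 102, 163 and 157 CPM at 6 weeks, against 57.3, 110.0, 56.9 and 97.5 CPM at 4 weeks, so 1 library of the later age fell inside the earlier range. H2-Aa did not overlap between these ages, as for 8.61% of all genes higher at 6 weeks. In the same step 4 of 10 endothelial markers were called higher and none lower, with sums of 1775 to 2009 CPM at 6 weeks against 1214 to 1593 CPM at 4 weeks. Of 12 macrophage markers 8 were called higher and none lower, with sums of 778 to 2309 CPM at 6 weeks against 300.2 to 755 CPM at 4 weeks. Neither pair of sums overlapped, and the part of these cells in the rises of Zbtb46 and the class II genes was not tested. Without 4-week replicate 1 or 3, H2-Ab1 and Ciita were no longer called, without 6-week replicate 3 Ciita was not, and without 6-week replicate 4 H2-Ab1 and Zbtb46 were not; the number called then ranged from 4 to 6.

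Between 6 and 9 weeks in male cKO glands 2 of 10 were called higher, H2-Aa (0.85, adjusted p = 0.0484) and Clec9a (1.67, adjusted p = 0.0473), beside 0.41% of all genes. These calls were not stable when 1 library was left out. Without 9-week replicate 1, the library with 986 CPM of macrophage markers, 5 genes were called, and in the other 7 such fits 0 were called. The share of all genes called in these fits is not given here, so whether calls moved likewise over all genes was not measured. Over the whole span from 4 to 9 weeks, a comparison added after the data had been seen, all 10 genes were called higher in cKO males, beside 20.8% of all genes. H2-Aa rose by 1.80 ± 0.20, Cd74 by 1.49 and Ciita by 1.47 on the log2 scale. In that span 8 of 12 macrophage markers were called higher in cKO males and none lower. Without 4-week replicate 1 or 3, or 9-week replicate 1 or 3, the call of Zbtb46 was lost and 9 genes remained called.

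In control males the class II genes rose as well. From 4 to 9 weeks H2-Aa rose by 1.61 ± 0.20 (adjusted p = 0.000634), H2-Ab1 by 1.51 (adjusted p = 0.00215), H2-Eb1 by 1.54 (adjusted p = 0.000634), Cd74 by 1.43 (adjusted p = 0.00162) and Ciita by 1.55 (adjusted p = 0.00332). The Cd74 values were 681, 675, 528 and 519 CPM at 9 weeks, against 253, 162, 257 and 218 CPM at 4 weeks, without overlap, as for 4.44% of all genes higher at 9 weeks. Clec9a rose as well (1.49, adjusted p = 0.0431), which makes 6 of 10 genes called higher beside 0.913% of all genes. Of 12 macrophage markers edgeR called 0 in this comparison, and the smallest adjusted p was 0.086 for C1qa, a complement subunit made by resident macrophages (0.71 ± 0.23). Their summed level was 482 to 622 CPM at 9 weeks, against 268 to 428 CPM at 4 weeks, without overlap, and its part in the class II rise was not tested. H2-DMb1 (1.51, adjusted p = 0.0024) and H2-DMa (0.95, adjusted p = 0.01) rose with the class II chains in these controls. The call of Clec9a was lost in 6 of 8 fits without 1 library, namely 4-week replicate 1, 2 or 3 and 9-week replicate 2, 3 or 4.

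By single steps, control males at 6 against 4 weeks had 1 of 10 genes called, H2-Aa (1.04 ± 0.20, adjusted p = 0.047), beside 0.041% of all genes called higher, and this call was lost without any 1 library other than 4-week replicate 1 or 6-week replicate 4. Control males at 9 against 6 weeks had 0 called by edgeR, as over all genes (0%), and 0 called by DESeq2. Of the 10, 5 had an unadjusted p under 0.05 there, beside 1200 of all 17086 genes. The change of the genotype effect from 4 to 9 weeks was called for 0 of 10 genes in edgeR and in DESeq2, where edgeR called 4.92% of all genes. For that change 3 of the 10 had an unadjusted p under 0.05, beside 4065 of all 17086 genes. Without 9-week cKO replicate 1, Cd209a was called. For H2-Aa, H2-Ab1, H2-Eb1 and Cd74 this change lay between -0.06 and 0.19 on the log2 scale.

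In females none of the steps between consecutive weeks gave a call among the 10 genes. For cKO females at 9 against 6 weeks 1.75% of all genes were called, and 5 of the 10 genes had an unadjusted p under 0.05, beside 2636 of all 18645. For cKO females at 12 against 9 weeks 0% of all genes were called and 1 of the 10 had an unadjusted p under 0.05, beside 1871 of all genes. In control females 0 of 10 reached an unadjusted p under 0.05 at 9 against 6 weeks, beside 966 of all genes. At 12 against 9 weeks 5 of 10 did, beside 1297 of all genes, with 0% of all genes called in either step. DESeq2 called 0 of the 10 in each of these 4 comparisons. From 6 to 12 weeks, also added after the data had been seen, cKO females had 2 calls, Batf3 (0.91, adjusted p = 0.0421) and Zbtb46 (0.23, adjusted p = 0.0371), beside 6.03% of all genes called higher. Without the low-count filter neither was called. The same held without 6-week replicate 1 or 12-week replicate 2 or 3. Batf3 lost its call without 6-week replicate 2 or 3, and Zbtb46 without 6-week replicate 4 or 12-week replicate 1. The class II chains and Cd74 were 0.64 to 0.68 higher in control females at 12 than at 6 weeks without being called (adjusted p 0.439 to 0.472). There edgeR and DESeq2 called 0 of the 10, and edgeR called 0.0912% of all genes. Of the 10, 6 had an unadjusted p under 0.05 there, beside 1525 of all 18645 genes. The change of the genotype effect from 6 to 12 weeks was called for 0 of 10 by edgeR and by DESeq2, with 0.322% of all genes called by edgeR. For that change 0 of the 10 had an unadjusted p under 0.05, beside 1935 of all 18645 genes.

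The type 1 dendritic cell genes were low in every group. Clec9a had counts of 5 to 317 per library, Xcr1 of 0 to 276 and Batf3 of 14 to 150, so that counting error adds to their spread. At 9 weeks in males Clec9a had 1.12, 2.60, 3.53 and 3.91 CPM in cKO glands, against 1.14, 2.34, 1.41 and 1.45 CPM in control glands. Of the cKO libraries 3 lay above every control library and 1 lay below them all. The log2 difference of 0.81 ± 0.36 was not called (adjusted p = 0.102). Without cKO replicate 1, the low one, Clec9a was called (1.08, adjusted p = 0.0198), as it was without control replicate 2 (1.09, adjusted p = 0.0443).

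Batf3, the transcription factor of this lineage, had 2.24, 3.39, 2.86 and 5.06 CPM in these 9-week male cKO glands, against 1.51, 2.01, 3.28 and 1.58 CPM in control glands. Of the control libraries 1 lay within the cKO range. The difference of 0.69 ± 0.29 (adjusted p = 0.0865) became a call without cKO replicate 1 (0.85, adjusted p = 0.039) or control replicate 3 (1.02, adjusted p = 0.0202). Xcr1, the chemokine receptor, had 0.407, 1.07, 1.24 and 1.82 CPM in cKO glands, against 0.865, 1.63, 0.985 and 0.791 CPM in control glands, with a log2 difference of 0.09 (adjusted p = 0.915). Of the 9 other type 1 dendritic cell genes tested in males, 2 rose at 9 weeks, Irf8 (0.80, adjusted p = 0.0031), a transcription factor also found in macrophages and B cells, and Wdfy4 (0.82, adjusted p = 0.025), needed for presenting dead-cell antigen. The macrophage markers given above rose in the same glands, and their part in these differences was not tested.

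At 6 weeks in males Xcr1 and Clec9a were lower in value in cKO glands. Xcr1 had 0.299, 0.444, 0 and 0.311 CPM in cKO glands, against 0.479, 0.812, 0.932 and 0.920 CPM in control glands. All cKO libraries lay below all control libraries, as did 13.9% of all genes. These values rest on 4, 8, 0 and 4 reads against 9, 13, 13 and 14, and a count of 0 at the depth of replicate 3 allows a level of up to 0.197 CPM for counting error. The log2 difference of -1.52 ± 0.57 was not called by edgeR (adjusted p = 0.0619) and was called by DESeq2 (-1.54, adjusted p = 0.0439). Clec9a had 0.746, 0.722, 0.656 and 1.40 CPM in these cKO glands, against 1.33, 1.06, 2.15 and 1.84 CPM in control glands, a difference of -0.86 ± 0.40 (adjusted p = 0.136). At 4 weeks in males and at 6, 9 and 12 weeks in females none of Clec9a, Xcr1 and Batf3 was called, and their log2 differences lay between -0.49 and 0.58.

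Other genes of type 1 dendritic cells were called in females. Irf8 fell in cKO glands at 6 weeks (-1.21, adjusted p = 1.6e-07) and at 12 weeks (-0.82, adjusted p = 3.8e-05). Id2, an inhibitor of helix-loop-helix factors, rose at 6, 9 and 12 weeks by 0.70, 0.91 and 0.75 (adjusted p = 0.0025, 0.00022 and 0.0022). Of the 10 tested genes of the list besides the members, 1 rose and 2 fell in females at 6 weeks, 1 rose and 1 fell at 9 weeks, and 1 rose and 2 fell at 12 weeks. Which cells carried these changes was not tested.

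**Figure D3:**
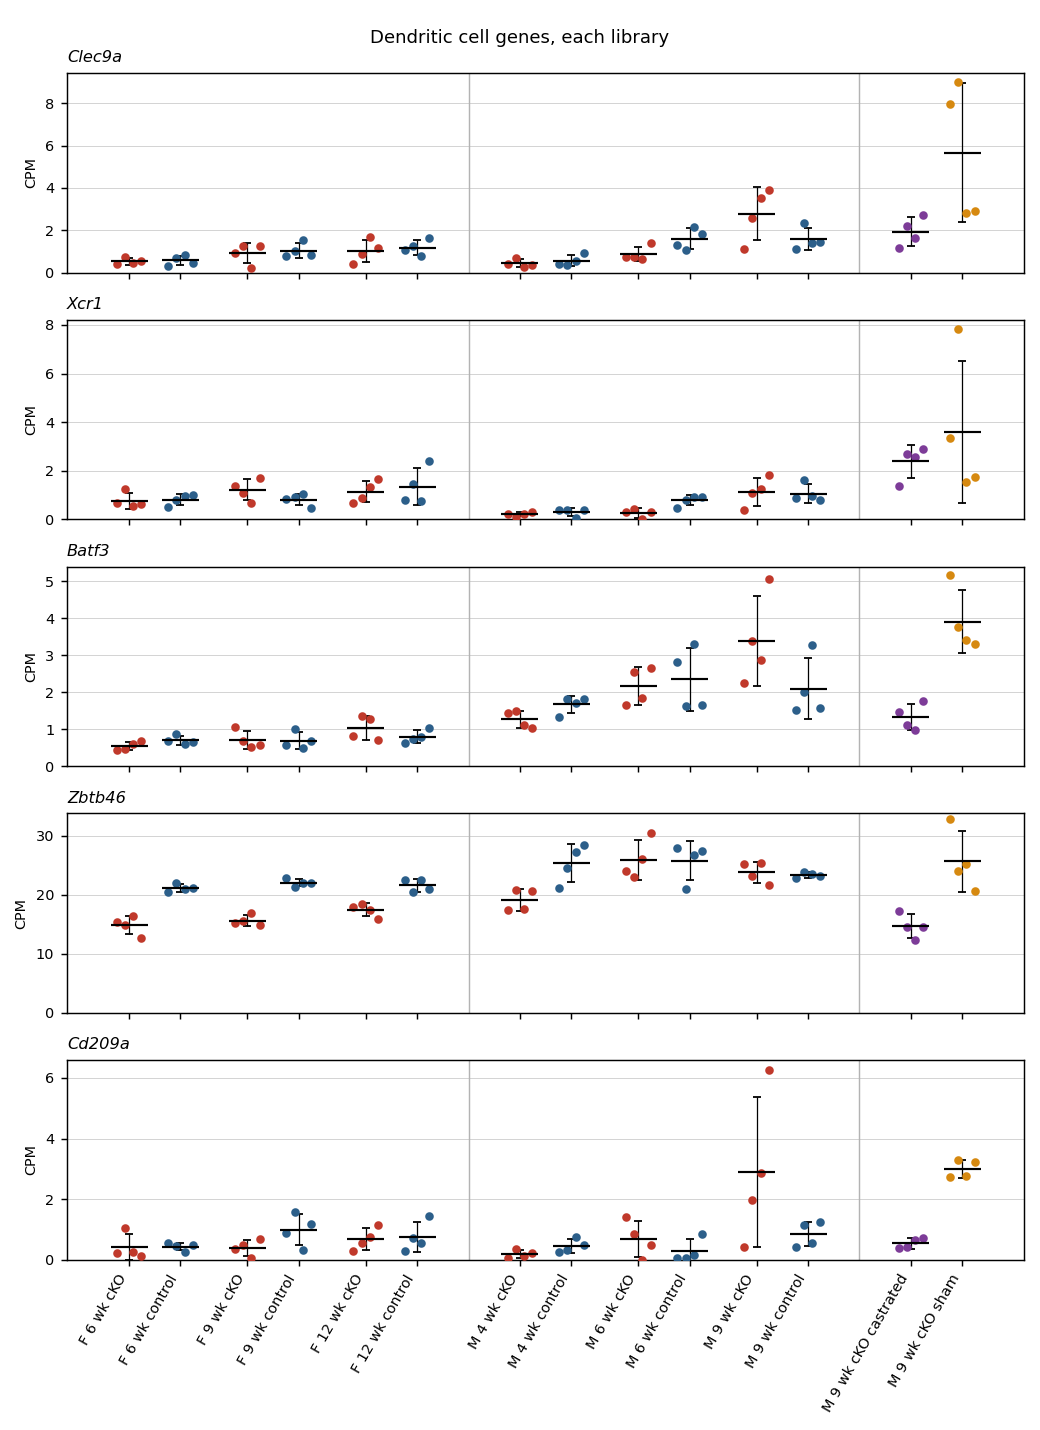
CPM of Clec9a, Xcr1, Batf3, Zbtb46 and Cd209a by group on linear axes, with 1 point per library and the mean ± SD of 4 libraries. Zbtb46 is lower in female cKO than in female control glands at each age without overlap, and castrated glands lie below sham glands for Clec9a, Batf3, Zbtb46 and Cd209a.

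Zbtb46 was the only one of the 10 genes called between genotypes. In females at 6 weeks it had 15.4, 14.9, 16.3 and 12.7 CPM in cKO glands, against 20.4, 21.98, 21.04 and 21.2 CPM in control glands. At 9 weeks it had 15.3, 15.6, 16.9 and 14.8 CPM in cKO glands, against 22.9, 21.4, 22.1 and 22.02 CPM in control glands. At 12 weeks it had 17.9, 18.5, 17.4 and 15.997 CPM in cKO glands, against 22.5, 20.5, 22.5 and 20.98 CPM in control glands. Every female cKO library lay below every control library of its age. At 6, 9 and 12 weeks 17.9%, 19.6% and 15.4% of all genes did the same. The log2 fold change was -0.51 ± 0.07 (adjusted p = 5.2e-06) at 6 weeks, -0.50 ± 0.07 (adjusted p = 9.05e-06) at 9 weeks and -0.31 ± 0.07 (adjusted p = 0.0023) at 12 weeks, and each call held in all fits without 1 library.

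In males Zbtb46 was lower in cKO glands at 4 weeks, a call that depended on single libraries. It had 17.5, 20.8, 17.7 and 20.7 CPM in cKO glands, against 21.2, 24.6, 27.3 and 28.4 CPM in control glands. The groups did not overlap, as for 12.7% of all genes lower in cKO glands. The difference was -0.41 ± 0.11 (adjusted p = 0.0097). The call was lost without cKO replicate 1 (-0.31, adjusted p = 0.0693) or 3 (adjusted p = 0.0659) and without control replicate 3 (adjusted p = 0.0712) or 4 (adjusted p = 0.0888). It was also lost when only the 2 groups were fitted (-0.40, adjusted p = 0.0595) and with the library number above 24 as a covariate (-0.35, adjusted p = 0.104). Library number went with genotype at this age. The cKO libraries were numbered 5 to 8, and only replicate 1 of the controls was numbered up to 24. The fit of libraries up to 24 thus held 1 control, the lowest for Zbtb46, and gave -0.14. At 6 weeks the log2 difference was 0.00 (adjusted p = 0.991) and at 9 weeks 0.03 (adjusted p = 0.88). The genotype effect in males minus that in females was 0.51 ± 0.10 at 9 weeks and was called (adjusted p = 0.007), as were 8.68% of all genes. Each sex formed its own series, so sex and series cannot be told apart here. At 6 weeks the effect in males minus that in females was 0.50 ± 0.15 and was not called (adjusted p = 0.0523). There edgeR called 0 of the 10 genes and 7.63% of all genes. At an unadjusted p under 0.05 were 2 of the 10, beside 4002 of all 17681 genes. DESeq2 called 1 of the 10, Zbtb46, beside 1986 of all genes. The 6-week difference was called without female cKO replicate 1 or 3, female control replicate 1, male cKO replicate 2 or male control replicate 1.

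Endothelial markers, a list added after the data had been seen because Zbtb46 is also an endothelial gene, were measured beside it. Of 10 markers 8 were called lower and 1 higher in female cKO glands at 6 weeks, 9 lower and 1 higher at 9 weeks, and 3 lower and 1 higher at 12 weeks. In male cKO glands 3 were lower at 4 weeks, 5 higher at 6 weeks and 1 higher at 9 weeks. Pecam1, an adhesion molecule of endothelial cells, differed by -0.43 on the log2 scale (adjusted p = 1e-05) in females at 9 weeks and by 0.69 (adjusted p = 0.00032) in males at 6 weeks. The summed level of the 10 markers was 1031 to 1119 CPM in female cKO glands at 9 weeks and 1193 to 1392 CPM in control glands. In males at 9 weeks it was 1430 to 1796 CPM in cKO and 1303 to 1652 CPM in control glands. The sums and Zbtb46 did not always go together. In females at 12 weeks, where Zbtb46 was called lower, the sums overlapped with 1176 to 1236 CPM in cKO and 1189 to 1289 CPM in control glands. In males at 6 weeks, where the log2 difference of Zbtb46 was 0.00, the sums were 1775 to 2009 CPM in cKO and 1274 to 1484 CPM in control glands, without overlap. In females at 6 weeks they were 959 to 1091 CPM in cKO and 1119 to 1209 CPM in control glands, and in males at 4 weeks 1214 to 1593 CPM in cKO and 1362 to 1750 CPM in control glands. No endothelial marker was at 0, and their part in the Zbtb46 difference was not tested.

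**Figure D4:**
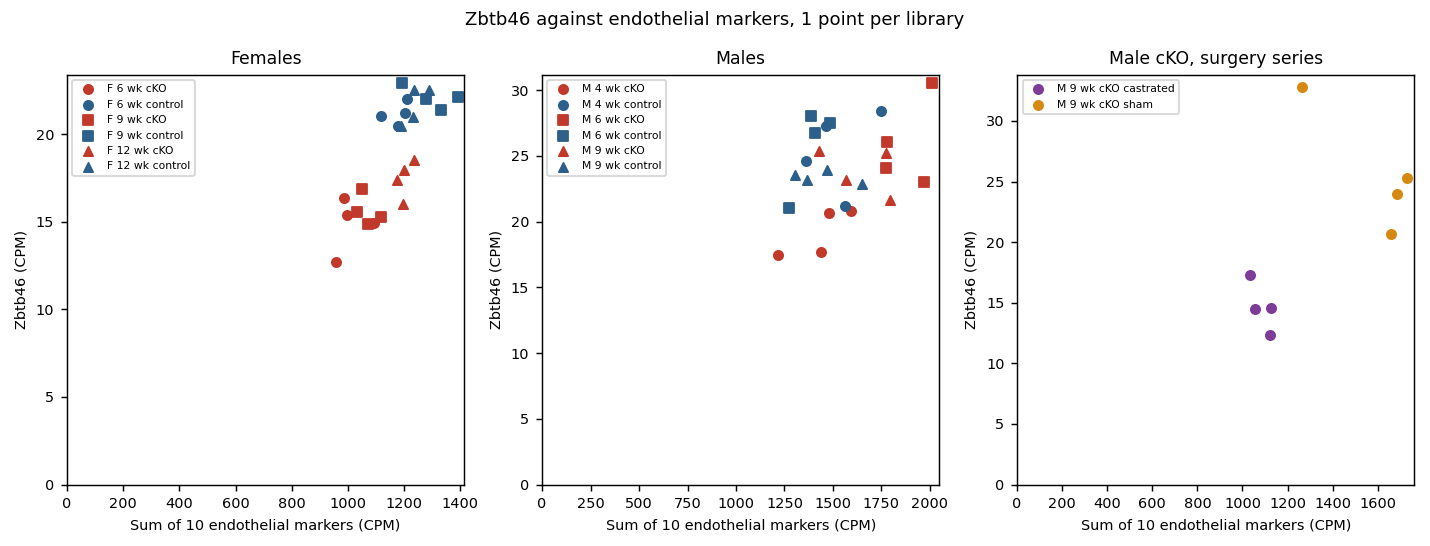
CPM of Zbtb46 against the summed CPM of 10 endothelial markers, 1 point per library, in females, males and the surgery series. Female cKO points lie low on both axes relative to control points at 6 and 9 weeks, and castrated points lie below sham points on both axes.

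Cd209a, the lectin of type 2 and monocyte-derived dendritic cells, varied widely between libraries. In males at 9 weeks it had 0.407, 1.98, 2.86 and 6.27 CPM in cKO glands, against 0.432, 1.15, 0.563 and 1.23 CPM in control glands. The lowest cKO library lay below all control libraries and the other three above them all. The difference of 1.75 ± 0.71 was not called (adjusted p = 0.0772), and it was called without cKO replicate 1 (2.12, adjusted p = 0.0241). In females at 9 weeks Cd209a had 0.354, 0.478, 0.0536 and 0.678 CPM in cKO glands, against 0.869, 1.56, 0.331 and 1.19 CPM in control glands, a difference of -1.33 ± 0.64 (adjusted p = 0.118). These directions differ, and the genotype effect in males minus that in females, 3.07 at 9 weeks, was not called (adjusted p = 0.0567). It was called without male cKO replicate 1 and by DESeq2.

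Other genes of conventional and type 2 dendritic cells gave mixed counts between genotypes. In females at 6, 9 and 12 weeks 2, 2 and 2 of the 10 tested rose in cKO glands and 2, 0 and 1 fell, and in males at 4, 6 and 9 weeks 1, 2 and 3 rose and 1, 0 and 0 fell. Those that rose were Kit and Sirpa, which other cells also express, and in males at 9 weeks also Itgax, the CD11c integrin chain (2.14, adjusted p = 0.0004). Kit rose by 2.63 (adjusted p = 7.8e-09) and Sirpa rose by 1.43 (adjusted p = 6.7e-05) in females at 6 weeks. Mgl2, a lectin of type 2 dendritic cells and some macrophages, fell in females at 6 weeks (-1.15, adjusted p = 0.0084) and 12 weeks (-0.91, adjusted p = 0.037). Of 9 tested genes of mature dendritic cells and costimulation, 1, 2 and 1 rose in females and 1, 1 and 5 in males, and 1 fell in males at 4 weeks. Fscn1, an actin-bundling protein of mature dendritic cells and of other cells, rose at all 6 ages, by 2.44 (adjusted p = 3.3e-09) in females at 6 weeks and by 0.55 (adjusted p = 0.0047) in males at 9 weeks. Cd83 rose in males at 9 weeks (1.07, adjusted p = 0.0075). The receptor subunit Csf2rb, which binds dendritic cell growth factors, rose by 2.61 (adjusted p = 7.7e-05) there. Plasmacytoid dendritic cell markers numbered 5 to 7 tested, of which 0 to 2 were called lower and at most 1 higher at each age.

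Most of the 10 genes were lower in castrated than in sham male cKO glands. Of the 10, 8 were called lower, beside 23.8% of all genes called lower. For 5 of them, Ciita, Clec9a, Batf3, Zbtb46 and Cd209a, every castrated library lay below every sham library, as for 22% of all genes. The median log2 fold change of the 10 was -0.78, beside -0.01 over all 16961 genes tested. Without sham replicate 1, the library that stood apart, 7 of the 10 were called. Its levels of Batf3 and Zbtb46 were the highest of the sham libraries and its macrophage sum of 1497 CPM the lowest, and its part in the differences was measured only by leaving it out. Without it the log2 fold change was -0.65 for H2-Aa, -0.60 for H2-Ab1, -0.58 for H2-Eb1 (the call that was lost, adjusted p = 0.0584), -0.55 for Cd74 and -1.14 for Ciita. It was -1.34 for Clec9a, -0.62 for Xcr1, -1.39 for Batf3, -0.67 for Zbtb46 and -2.50 for Cd209a. Leaving out each of the 8 libraries in turn gave between 6 and 9 calls. For these fits the share of all genes called is not given here.

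Cd209a fell most. It had 0.369, 0.406, 0.660 and 0.717 CPM in castrated glands, against 2.73, 3.29, 2.77 and 3.22 CPM in sham glands. The groups did not overlap, as for 22% of all genes lower after castration. These values rest on 10 to 24 reads in castrated and 70 to 146 reads in sham glands. The log2 fold change was -2.47 ± 0.27 (5.52-fold lower, adjusted p = 6.5e-05). The 6 other Cd209 genes did not pass the filter on low counts, and their summed level was 0 to 0.138 CPM in castrated and 0.679 to 1.10 CPM in sham glands. How reads shared among these paralogs were assigned is not stated in the labels.

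Batf3 had 1.48, 1.12, 0.990 and 1.76 CPM in castrated glands, against 5.15, 3.77, 3.40 and 3.31 CPM in sham glands, a 2.92-fold lower level (log2 -1.54 ± 0.26, adjusted p = 0.00081). Clec9a had 1.18, 2.19, 1.62 and 2.74 CPM in castrated glands, against 7.97, 8.98, 2.83 and 2.91 CPM in sham glands. The groups did not overlap, and sham replicates 3 and 4 lay just above the highest castrated library. Its log2 fold change of -1.54 ± 0.43 was called (adjusted p = 0.0142), also in each fit without 1 library. Xcr1 had 1.37, 2.69, 2.59 and 2.90 CPM in castrated glands, against 3.36, 7.82, 1.52 and 1.74 CPM in sham glands. The groups overlapped, with sham libraries at the top and castrated replicate 1 at the bottom. The difference of -0.59 ± 0.49 was not called (adjusted p = 0.351), and it was 0.13 without sham replicate 2.

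Ciita had 6.79, 8.87, 6.38 and 8.18 CPM in castrated glands, against 16.2, 26.4, 12.6 and 10.99 CPM in sham glands. Without overlap, it was 2.19-fold lower (log2 -1.13 ± 0.26, adjusted p = 0.0055). H2-Aa had 156, 171, 177 and 254 CPM in castrated glands, against 387, 389, 225 and 278 CPM in sham glands. The highest castrated library lay above the lowest sham library. The change of -0.76 ± 0.21 was called (adjusted p = 0.0136) in all fits without 1 library.

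H2-Ab1 had 136, 163, 179 and 240.1 CPM in castrated glands, against 279, 357, 205 and 252 CPM in sham glands, with a change of -0.61 ± 0.20 (adjusted p = 0.0321). Without castrated replicate 1, 2 or 3 or sham replicate 2 it was not called, with adjusted p values of 0.0825, 0.0849, 0.073 and 0.0983. H2-Eb1 had 142, 165, 157 and 249 CPM in castrated glands, against 285, 359, 195 and 248 CPM in sham glands, with a change of -0.61 ± 0.21 (adjusted p = 0.0408). It was called only without castrated replicate 4 or sham replicate 3. Without castrated replicates 1, 2 and 3 in turn its adjusted p was 0.103, 0.0978 and 0.11, and without sham replicates 1, 2 and 4 it was 0.0584, 0.123 and 0.0574. Cd74 had 414, 497, 513 and 681 CPM in castrated glands, against 788, 1059.8, 527 and 735 CPM in sham glands. Its difference of -0.56 ± 0.22 was not called (adjusted p = 0.0568), and it was called with DESeq2 (adjusted p = 0.0314), with reporter allele in the fit (-0.64, adjusted p = 0.0187) and without castrated replicate 4 (adjusted p = 0.0354) or sham replicate 3 (-0.71, adjusted p = 0.0175).

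Zbtb46 had 17.3, 14.5, 12.4 and 14.6 CPM in castrated glands, against 32.8, 23.99, 25.3 and 20.6 CPM in sham glands. All castrated libraries lay below all sham libraries, and the change was -0.81 ± 0.16 (1.75-fold lower, adjusted p = 0.0025). Of 10 endothelial markers 9 were called lower and none higher in castrated glands, led by Tie1 (-0.86, adjusted p = 0.00019) and Flt1 (-1.03, adjusted p = 0.00031). Their summed level was 1032 to 1128 CPM in castrated and 1263 to 1728 CPM in sham glands, with none at 0.

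**Figure D5:**
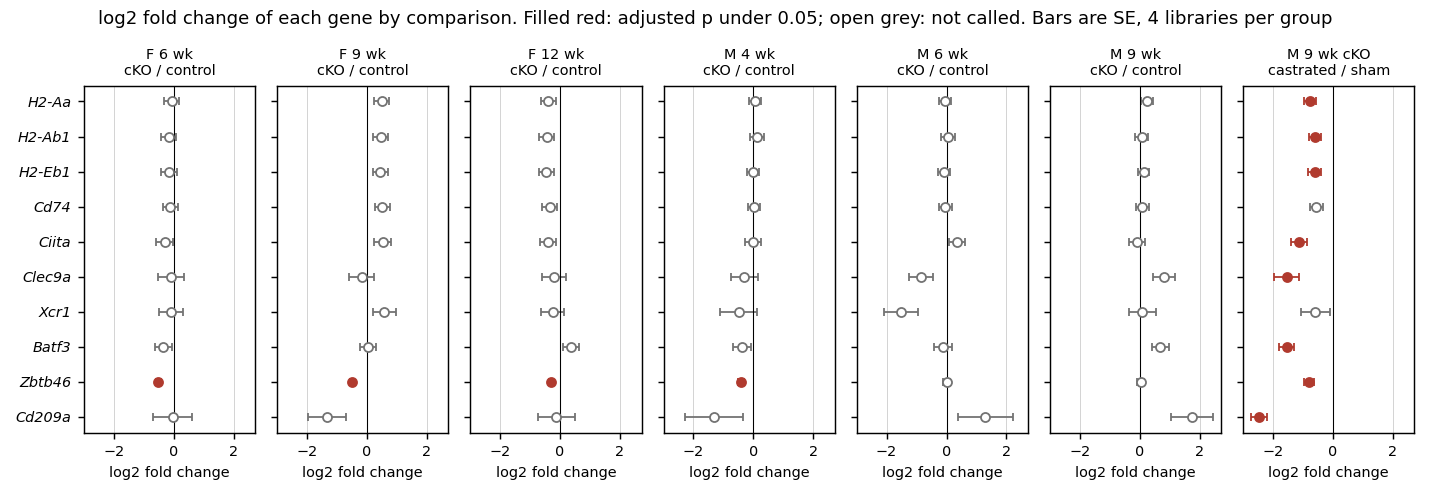
Log2 fold change ± SE of each of the 10 genes, cKO over control at each age and castrated over sham in male cKO (4 libraries per group, adjusted p under 0.05 in filled red). Between genotypes Zbtb46 is the one filled point, at 6, 9 and 12 weeks in females and at 4 weeks in males, and in the castration panel 8 points are filled, all below 0.

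The wider lists gave mixed results after castration, beside 4039 of all 16961 genes called lower (23.8%) and 3363 called higher. Summed levels in castrated against sham glands fell without overlap for class II loading (681 to 814 against 1111 to 1820 CPM). They also fell for growth factors and receptors (130 to 177 against 220 to 349 CPM). They rose without overlap for type 1 (919 to 1093 against 434 to 594 CPM) and mature dendritic cell genes (500 to 828 against 144 to 183 CPM). A sum of CPM weighs abundant genes most, and single genes of both lists fell, as given below. The rise of these 2 sums is therefore not a rise of each list as a whole. Sums of the other lists here overlapped. Of 11 tested genes of class II loading and further chains 6 fell and 1 rose, led by Ctss (-2.46, adjusted p = 9.9e-06) and Ctsl (-1.70, adjusted p = 0.00012), both lysosomal proteases. Of the 10 conventional and type 2 dendritic cell genes 6 fell and 1 rose, with Itgax at -2.64 (adjusted p = 7.1e-07), Clec10a, a lectin, at -2.23 (adjusted p = 3.8e-05) and Kit at 2.63 (adjusted p = 3.7e-05). Of the 10 type 1 dendritic cell genes besides the members 3 fell, Irf8 with -0.55 (adjusted p = 0.0246) and Naaa with -0.88 (adjusted p = 0.0083) among them, and Id2 rose by 1.43 (adjusted p = 2.4e-05). Of 9 genes of mature dendritic cells and costimulation 4 fell, Cd83 with -1.80 (adjusted p = 4e-05) and Cd80 with -1.42 (adjusted p = 0.0012), while Fscn1 rose by 3.31 (adjusted p = 1.5e-06). Of 5 genes of dendritic cell growth factors and their receptors 3 fell, led by Csf2rb (-2.68, adjusted p = 1.5e-06). Of 6 tested plasmacytoid dendritic cell markers 2 fell, Siglech (-0.96, adjusted p = 0.031) and Ccr9 (-1.11, adjusted p = 0.045). Of the 7 factors at the X and Y boxes 1 fell, the NF-Y subunit Nfya (-0.31, adjusted p = 0.046). Of 12 class I genes 5 fell, led by H2-D1 (-0.72, adjusted p = 0.0033). Among 16 interferon gamma genes 4 fell, Socs1 (-1.04, adjusted p = 0.0042) among them, and 1 rose.

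Several cell markers moved in the same comparison. Of 12 macrophage markers 9 fell and none rose, led by Cd68 (-2.89 ± 0.14, adjusted p = 5.1e-07), and their summed level was 481 to 751 CPM in castrated and 1497 to 2890 CPM in sham glands. All 4 tested monocyte markers fell, led by Ccr2 (-1.79, adjusted p = 0.00021). Of 7 T cell markers 1 fell, Cd4 (-1.86, adjusted p = 0.00067), which some macrophages also express. Of 6 B cell markers 2 fell, Fcer2a (-1.07, adjusted p = 0.03) among them, and Pax5 rose by 1.22 (adjusted p = 0.017), with sums of 4.54 to 4.89 CPM in castrated and 3.99 to 6.93 CPM in sham glands. Of the 5 cortex markers 4 rose and none fell. Markers of lymph node stroma had sums of 1.69 to 2.61 CPM in castrated glands and of 8.28, 6.09, 1.87 and 4.42 CPM in sham replicates 1 to 4, with Glycam1 at 0 in all 8 libraries. Among these only Ccl21a was called (-1.33, adjusted p = 0.045). In the female and male series the sums were at most 0.363 CPM with Ccl21a and Glycam1 at 0. The surgery series follows another annotation release than those series, so the presence of lymph node tissue cannot be compared between them. The sham libraries with most Clec9a were those with most of the lymph node stroma markers. The part of macrophages, monocytes and lymph node tissue in the falls of the 10 genes was not tested.

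The class II genes moved together from library to library within a group. In 10 of the 14 groups the same library was highest for H2-Aa, H2-Ab1, H2-Eb1 and Cd74, and in 11 the same library was lowest. In 7 of those 10 groups that library was also highest for Ciita, in 7 for Clec9a, in 7 for Xcr1, in 7 for Batf3, in 8 for Cd209a and in 2 for Zbtb46. By deviations from group means, Clec9a had a Pearson r with H2-Aa, H2-Ab1, H2-Eb1 and Cd74 of 0.73 to 0.76 in females and 0.17 to 0.30 in males. For Xcr1 it was 0.73 to 0.76 in females and -0.22 to -0.16 in males. Each library gives all of these values, so its depth and its tissue makeup are shared. Among 12773 genes compared over the 24 female and the 24 male libraries, the genes most like H2-Ab1 were H2-DMa (Pearson r of log2 CPM 0.875 in females and 0.921 in males), H2-DMb1 (0.817 and 0.933), Pld4 (0.869 and 0.847), the costimulatory ligand gene Cd86 (0.848 and 0.838) and H2-M2 (0.705 and 0.931). Those most like Clec9a were Gm8995 (0.769 and 0.752), Coro1a, an actin regulator of leukocytes (0.77 and 0.716), Fxyd5 (0.626 and 0.833), H2-M2 (0.606 and 0.843) and Naaa (0.6 and 0.836). These are descriptions over libraries that share ages and genotypes.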

How the data were processed

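The authors deposited raw gene-level counts, not normalized, in 3 tables: females, males and the surgery series. Per the submitters' processing notes the tools included cutadapt 1.16, DESeq2 1.30.1, featureCounts, RSEM 1.6.3 and STAR 2.7.6a, with the GRCm38 build and no role or order stated. Per the labels' protocols libraries were directional and poly(A)-selected. The surgery table follows another annotation release (93.985% of identifiers with a symbol in GENCODE M21, against 99.376% in the other tables), and the tables were normalised separately, so levels set side by side across tables carry that difference. Per the design text each group holds 4 independent mice. Each p-value sets a difference between groups against the spread between mice, which was estimated over all groups in the fit.

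In R 4.3.3, edgeR 4.0.16 was run with filterByExpr at a minimum count of 10 and TMM factors on all groups of a table in 1 fit (18645 genes in females, 17086 in males, 16961 in the surgery series). Differences between sexes were interaction terms over both tables. Sex and table coincide, so a sex difference cannot be told apart from a difference between the series. Each standard error is the log2 fold change divided by the square root of F; levels are CPM, and log2 CPM used a prior count of 2. Gene positions and exon lengths came from GENCODE M21, promoters from RefSeq GRCm38.p6. The fits were tested on simulated counts, with the same dispersion for all genes and log2 changes of 1 or 2 in either direction. That test does not cover smaller changes or the spread of the 10 genes. Alternatives were DESeq2 1.42.0, relative log expression factors, no low-count filter, a filter of CPM 1 in 4 libraries, fits of 2 groups only, the replicate number as a block, the library number in male titles (limit 24), the reporter allele and leaving out each library.

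The 10 genes and the marker lists were chosen with earlier results of these data known. Named beside the 10 genes are at most 3 genes per list with the smallest p (2 between weeks), markers that define a cell type, and the 5 genes most like H2-Ab1 and Clec9a. Some genes of these lists are not reported here by name.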

Additional observations from a re-analysis of the deposited data

Results flagged for a closer look

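A library stood apart from the other 3 of its group in 6 of 140 combinations of gene and group, by the gap between the extreme library and its neighbour; chance gives about 1 in 20. Cd209a in female cKO glands at 6 weeks was 1.06 CPM in replicate 2, and 0.110 to 0.242 CPM in the others. In control males at 6 weeks Cd209a was 0.854 CPM in replicate 4, and 0.0532 to 0.143 CPM in the others. Xcr1 in control males at 4 weeks was 0.0613 CPM in replicate 3, and 0.371 to 0.378 CPM in the others. In male cKO glands at 6 weeks replicate 2 was lowest for H2-Aa (115 CPM, others 152 to 158 CPM) and for Cd74 (332 CPM, others 426 to 441 CPM). Clec9a in that group was 1.40 CPM in replicate 4, and 0.656 to 0.746 CPM in the others. For Zbtb46 the genotype effect differed between the male and the female series at 9 weeks, by 0.51 on the log2 scale (males minus females, edgeR's interaction test, adjusted p = 0.007). Sex and series cannot be told apart in this difference.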

How the results depend on the processing

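The replicate numbers did not pair the samples: correlations of same-numbered deviations ran from -0.253 to 0.194, and in no comparison were all above 0.1. With the replicate number as a block the count of called genes among the 10 was 1 for 12 against 6 weeks in cKO females, 0 for 9 against 6 weeks in cKO males, 0 for 6 against 4 weeks in control males and 2 for the sex difference at 9 weeks; the other counts were within 1.5 times, and the log2 difference of Zbtb46 in males at 6 weeks was -6.034e-06. The share of all genes called with the replicate number as a block is not given here. No paired analysis was possible for castrated against sham because the sham labels carry 1 number.

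Counts of called genes under other settings were as follows. Except with DESeq2, the share of all genes called under these settings is not given here. Counts without that share cannot be read against all genes. With relative log expression factors 1 was called for 9 against 6 weeks in cKO males and 2 for 6 against 4 weeks in control males. With DESeq2 these were 4 and 5, beside 669 and 268 of all genes. The genotype comparison in males at 6 weeks gave 1 with DESeq2, beside 3771 of all genes. The sex difference gave 1 at 6 weeks and 2 at 9 weeks, beside 1986 and 2448 of all genes. Without the low-count filter 0 were called for 12 against 6 weeks in cKO females, 3 for 6 against 4 weeks in control males and 2 for the sex difference at 9 weeks; in the surgery series that setting moved the median of all genes to -0.11 on the log2 scale. With CPM of at least 1 in 4 libraries, 2 were called for 6 against 4 weeks in control males and 1 for the sex difference at 6 weeks. With only the 2 groups compared, 5 were called between genotypes in females at 9 weeks, and 0 in males at 4 weeks, for 12 against 6 weeks in cKO females, for 9 against 6 weeks in cKO males and for 6 against 4 weeks in control males. With the library number as a covariate 0 were called between genotypes in males at 4 weeks and for 9 against 6 weeks in cKO males, and 2 for 6 against 4 weeks in control males. Male libraries at 6 weeks were numbered 13 to 16 in cKO and 25 to 33 in control glands. Within that age the covariate cannot be told apart from genotype, so its effect was estimated from the libraries of the other ages. With libraries numbered up to 24 alone, males at 4 weeks had 1 control library, so calls are not counted. With those above 24 alone 1 gene, Clec9a, was called in males at 9 weeks (1.39, adjusted p = 0.0335), between replicates 3 and 4 of each genotype. The cause of these moves was not tested.

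Some small differences between genotypes changed sign; none of these was called in the fit reported. Cd209a in females at 6 weeks was 0.0085 without the filter. In males at 4 weeks H2-Eb1 was 0.0055 with relative log expression factors, 0.0077 with DESeq2, 0.033 without the filter and 0.00084 with the CPM filter, and Ciita was 0.018, 0.018, 0.048 and 0.014 in that order, 0.0082 with only the 2 groups and 0.16 with libraries up to 24. The covariate gave -0.10 for H2-Aa, -0.025 for H2-Ab1, -0.094 for Cd74 and 0.019 for Clec9a there. Libraries up to 24, with 1 control library, gave -0.22 for H2-Aa, -0.15 for Cd74 and 0.15 for Clec9a. In males at 6 weeks Cd74 was 0.00025 without the filter. The covariate, which split the libraries by genotype at that age, gave -0.17 for H2-Ab1 and 0.35 for Batf3. In males at 9 weeks libraries up to 24 gave -0.14 for H2-Ab1, -0.057 for H2-Eb1, -0.14 for Cd74 and -0.76 for Xcr1, and those above 24 gave 0.27 for Ciita.

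Leaving out 1 library at a time gave 0 to 2 calls for 12 against 6 weeks in cKO females, 0 to 1 between genotypes in males at 4 weeks, 0 to 3 in males at 9 weeks, 0 to 3 for 6 against 4 weeks in control males, 0 to 5 for 9 against 6 weeks in cKO males, 0 to 1 for the change from 4 to 9 weeks in males, 0 to 1 for the sex difference at 6 weeks and 1 to 2 at 9 weeks. For these fits the share of all genes called is not given here. Signs changed within the following ranges of log2 differences. In females at 6 weeks they were -0.25 to 0.17 for H2-Aa, -0.35 to 0.074 for H2-Ab1, -0.35 to 0.11 for H2-Eb1, -0.30 to 0.12 for Cd74, -0.28 to 0.14 for Clec9a, -0.42 to 0.041 for Xcr1 and -1.12 to 0.28 for Cd209a. In females at 9 weeks they were -0.38 to 0.13 for Clec9a and -0.24 to 0.28 for Batf3, and at 12 weeks -0.54 to 0.058 for Clec9a, -0.49 to 0.18 for Xcr1 and -0.50 to 0.42 for Cd209a. In males at 4 weeks they were -0.10 to 0.22 for H2-Aa, -0.017 to 0.32 for H2-Ab1, -0.12 to 0.16 for H2-Eb1, -0.14 to 0.21 for Cd74, -0.17 to 0.26 for Ciita and -0.55 to 0.077 for Clec9a. At 6 weeks they were -0.17 to 0.20 for H2-Aa, -0.092 to 0.31 for H2-Ab1, -0.21 to 0.16 for H2-Eb1, -0.17 to 0.18 for Cd74, -0.24 to 0.14 for Batf3 and -0.072 to 0.090 for Zbtb46. At 9 weeks they were -0.034 to 0.21 for H2-Ab1, -0.046 to 0.23 for Cd74, -0.18 to 0.028 for Ciita and -0.21 to 0.39 for Xcr1. For castrated against sham the range of Xcr1 was -0.84 to 0.13.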
